A study of Mus musculus with 5 samples.

Results

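Histone lysine demethylases and their relatives with a JmjC domain were followed in Neuro2A, a cell line from a mouse neuroblastoma, in a study that asked what KDM7 does to gene expression. The set held 30 genes, picked by symbol from 18193 named on the array, and covered 86 of its 45037 probe sets without controls. The tested lines were KDM7 knockdown line 1 and KDM7 knockdown line 2, each transfected with a different vector against KDM7. The control lines were the parental cells, cells given an empty vector and cells with a vector for knocking down EGFP, a fluorescent protein foreign to mouse cells. Each line was measured once, on 1 Affymetrix 3' expression array, and the labels do not say whether a line is a clone or a pool, nor whether lines were grown in parallel. The lines of an arm, 2 knockdown and 3 control, serve as its replicates, so p-values measure only the spread between these arrays.

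Methyl groups on histone lysines are removed by enzymes of 2 chemical kinds. The KDM1 enzymes are flavin-dependent amine oxidases that act on mono- and dimethyl lysine, while the JmjC enzymes use iron and 2-oxoglutarate and can also act on trimethyl lysine. Each subfamily has its own preferred residues, so that KDM7 and KDM3 members act on H3K9, KDM6 on H3K27, KDM5 on H3K4 and KDM2 on H3K36. Other JmjC proteins are hydroxylases of proteins or RNA, or, as with JARID2, have no demethylase activity. In neural cells several of these genes matter for development, and in humans PHF8 and KDM5C are X-linked genes of intellectual disability.

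Values are deposited MAS5 signals, a linear intensity per probe set, and differences are log2, knockdown minus control, with standard errors (SE) from limma. Probe sets with a mean log2 signal at or above the median of the array, equal to a signal of 40.5, were tested. This held for 58 member probe sets of 28 genes. The other 28 ranged from 1.80 to 61.7 in single lines. They include the sole probe sets of Kdm4d, an H3K9 demethylase, and Jmjd8, a protein of the endoplasmic reticulum. No detection calls were used, so whether these dim signals exceed background is not known. The sizes of signals of different probe sets are not comparable with each other.

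Markers fixed for sympathoadrenal and neuroblastoma cells were measured for 11 of 13 genes, and 9 had a probe set past the brightness filter, among them Phox2a, Hand2 and Gata2, but not the neurofilament genes Nefl and Nefm. Their summed signal was 57626 and 63586 in knockdown lines 1 and 2, against 55727 to 60927 in the control lines, and 0 of their 14 tested probe sets passed in limma. Of the 14, 1 lay above and 4 below all controls, 35.7% in all and 28.6% below, where the array gave 22.8% and 10.2%. An unadjusted p under 0.05 in limma was reached by 5, with log2 differences, knockdown minus control, of -1.68 for Gata3, -1.62 and -1.03 for Isl1, -0.56 for Chga and 0.58 for Chgb, where the array gave 4.96%. Gata3 had 178 and 95.3 in the knockdown lines, against 554 in the parental line, 224 with the empty vector and 585 with the EGFP vector. The part of these markers in the members' values was not tested. Schwann and blood markers had 0 genes past the filter, with summed signals of at most 198 and 75.4, and fibroblast markers 2 of 6 genes, Col1a2 and Pdgfra, with sums from 211 to 380. The trimmed mean signal was 500.0 on every array.

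Kdm7a, which encodes the targeted demethylase of H3K9 and H3K27, was the only member past the threshold. The members of its subfamily share a PHD finger that reads H3K4 trimethylation next to the JmjC domain. Their promoter windows, the 250 bases before the annotated start in RefSeq on GRCm38.p6, are shown because the targeted gene and its paralogs differ in CG content there. Sequences run 5′ to 3′ on the strand of the gene, and capitals mark the dinucleotide CG, which reads the same on both strands.
Kdm7a, chr6:39206774-39207023, minus strand: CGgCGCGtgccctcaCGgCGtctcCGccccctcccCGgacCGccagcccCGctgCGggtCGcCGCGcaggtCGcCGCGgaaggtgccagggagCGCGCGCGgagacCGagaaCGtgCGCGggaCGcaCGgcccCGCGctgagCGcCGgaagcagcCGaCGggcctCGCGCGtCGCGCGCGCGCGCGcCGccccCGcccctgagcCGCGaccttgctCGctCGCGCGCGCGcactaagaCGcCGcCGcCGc
Phf2, chr13:48870886-48871135, minus strand: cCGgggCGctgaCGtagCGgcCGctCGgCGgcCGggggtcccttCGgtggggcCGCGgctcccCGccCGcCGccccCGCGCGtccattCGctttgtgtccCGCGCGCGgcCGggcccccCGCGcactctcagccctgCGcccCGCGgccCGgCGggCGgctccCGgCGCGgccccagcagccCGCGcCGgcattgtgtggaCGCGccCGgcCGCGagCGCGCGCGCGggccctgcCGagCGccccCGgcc
Phf8, chrX:151520422-151520671, plus strand: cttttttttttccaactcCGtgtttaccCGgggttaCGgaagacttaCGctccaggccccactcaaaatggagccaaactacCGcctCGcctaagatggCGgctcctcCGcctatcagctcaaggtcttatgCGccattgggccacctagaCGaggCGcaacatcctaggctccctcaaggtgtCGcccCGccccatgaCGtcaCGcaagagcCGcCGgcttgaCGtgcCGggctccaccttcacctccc
The Kdm7a window held 56 CG dinucleotides, the highest count among 32851 promoter windows of this length, and 0.00609% of windows had as many. Phf2 held 50, reached by 0.0944% of windows, and Phf8 held 19, reached by 19.7%. Over all windows the median was 6, and 92.1% held at least 1. Windows were listed for 24 member genes, 32 windows in all, and their median was 19. These counts describe the sequence and say nothing of its methylation, which was not measured.

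Probe set 1456150_at of Kdm7a had 130 and 136 in KDM7 knockdown lines 1 and 2, against 487, 611 and 665 in the parental line, the empty vector line and the EGFP knockdown line. The groups did not overlap, and since bulk RNA was measured, fewer cells with the transcript and less of it per cell cannot be told apart. The signal averaged 133 ± 3.93 (SD, n = 2) in the knockdown lines and 588 ± 91.4 (SD, n = 3) in the control lines. It fell by 2.13 on the log2 scale (SE 0.20), 4.38-fold lower, with an adjusted p of 0.0468 in limma after Benjamini-Hochberg adjustment. Over all 22519 probe sets tested, limma called 2, or 0.00888%, both lower, and of the 58 member probe sets it called this 1. Without limma's trend and robust options the adjusted p was 0.722 and 0 probe sets of the array passed, while 1117, or 4.96%, had an unadjusted p under 0.05 in the fit used here. The call also ended without the empty vector line (adjusted p = 0.0902 in limma), the EGFP knockdown line (0.659), knockdown line 1 (0.230) or knockdown line 2 (0.449), and not without the parental line (0.0365).

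The other tested Kdm7a probe sets, a pair of them, separated the groups too, though neither passed. Probe set 1435867_at had 231 and 143 in knockdown lines 1 and 2, against 660, 648 and 872 in the control lines, in the order parental, empty vector and EGFP knockdown, which holds for all control values that follow. Its log2 difference was -1.99 (SE 0.25, adjusted p = 0.128 in limma), and line 2 minus line 1 was -0.69 (log2). The dimmer 1427359_at had 25.2 and 19.9 in the knockdown lines, against 62.4, 84.1 and 103 in the control lines. Its difference was -1.86 (SE 0.40), or -1.06 with an offset of 32 added to each signal. Both knockdown lines thus lay below every control line at all 3 tested probe sets. A further pair of probe sets was under the filter, 1459820_at with 4.49 and 2.06 against 15.4, 25.1 and 7.71, and 1459821_x_at with 5.33 and 10.1 against 15.6, 5.78 and 7.46. The second of these overlapped between groups.

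**Figure D1:**
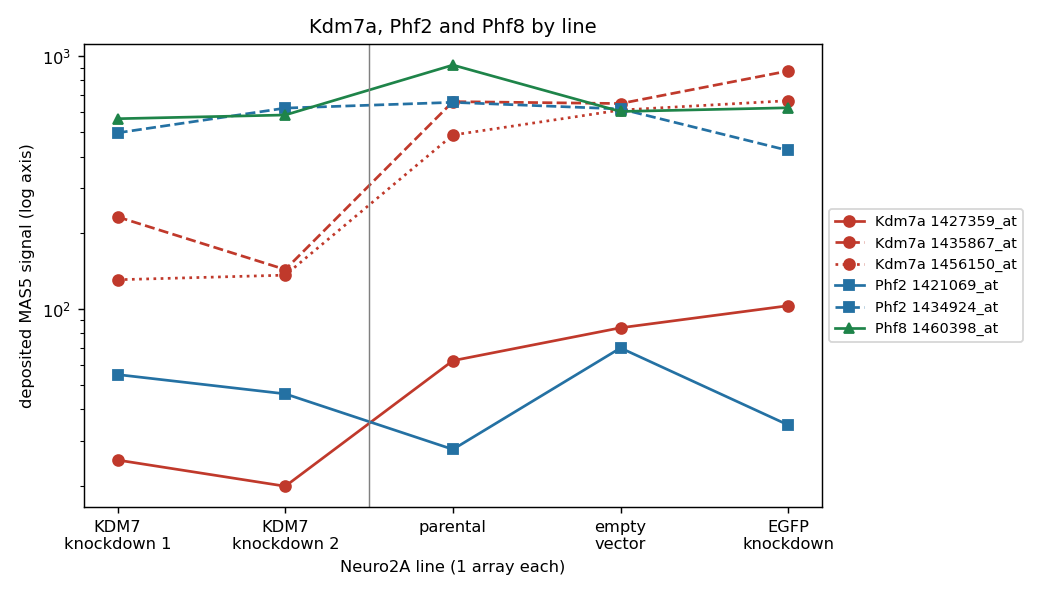
Deposited MAS5 signal (log axis) of the probe sets of Kdm7a, Phf2 and Phf8 past the brightness filter, 1 point per line, with lines joining the points of a probe set and the KDM7 knockdown lines left of the grey bar. The 3 Kdm7a probe sets are lowest in the pair of knockdown lines, while Phf2 overlaps and Phf8 is highest in the parental line, at 920.

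Phf2, which encodes an H3K9 demethylase that works with ARID5B, did not differ beyond the spread. Probe set 1434924_at had 496 and 622 in the knockdown lines, against 655, 617 and 423 in the control lines, and its log2 difference was 0.00 (SE 0.23). The sign of this value turned after quantile normalization, median centring and cyclic loess. The dimmer 1421069_at had 54.9 and 46.1 in the knockdown lines, against 27.8, 69.99 and 34.7 in the control lines (log2 difference 0.31, SE 0.48). Under the filter, 1421067_a_at had 26.1 and 16.9 against 16.9, 28.4 and 2.04, and 1421068_at had 4.44 and 15.4 against 6.65, 4.38 and 6.17. All 4 probe sets overlapped between the groups.

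Phf8, an X-linked gene for a demethylase of H3K9 and H4K20, had both knockdown lines below every control line. Probe set 1460398_at had 565 and 584 in the knockdown lines, against 920, 603 and 624 in the control lines. The log2 difference was -0.29 (SE 0.21, adjusted p = 0.917 in limma), and -0.09 without the parental line. Under the filter, 1439132_at had 25.1 and 33.6 against 45.6, 50.0 and 41.5, and 1459392_at had 31.6 and 8.05 against 1.93, 28.5 and 1.80. Of these dim probe sets the first had both knockdown lines lowest, and the second overlapped.

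Beyond Kdm7a, no member passed in limma, and the smallest adjusted p of the other 55 probe sets was 0.916. For 12 of the 58 member probe sets the knockdown lines did not overlap the controls, 4 above and 8 below, where the array as a whole gave 22.8%, 12.6% above and 10.2% below. Without Kdm7a there were 9 of 55, or 16.4%, with 4 above and 5 below. Their median log2 difference was 0.03 and the median size 0.14, against 0.03 and 0.16 over all probe sets tested. An unadjusted p under 0.05 in limma was reached by 1 of the 55, Kdm5c 1426498_at, where the array gave 4.96%. By both measures the share among these 55 was not above that of the array, but without the parental line 22 of 55, or 40.0%, did not overlap, 7 above and 15 below, where the array gave 36.3%, 18.5% above and 17.7% below. Of 17 genes with 2 or more tested probe sets, 9 had all of them on one side of 0 and 8 did not.

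**Figure D2:**
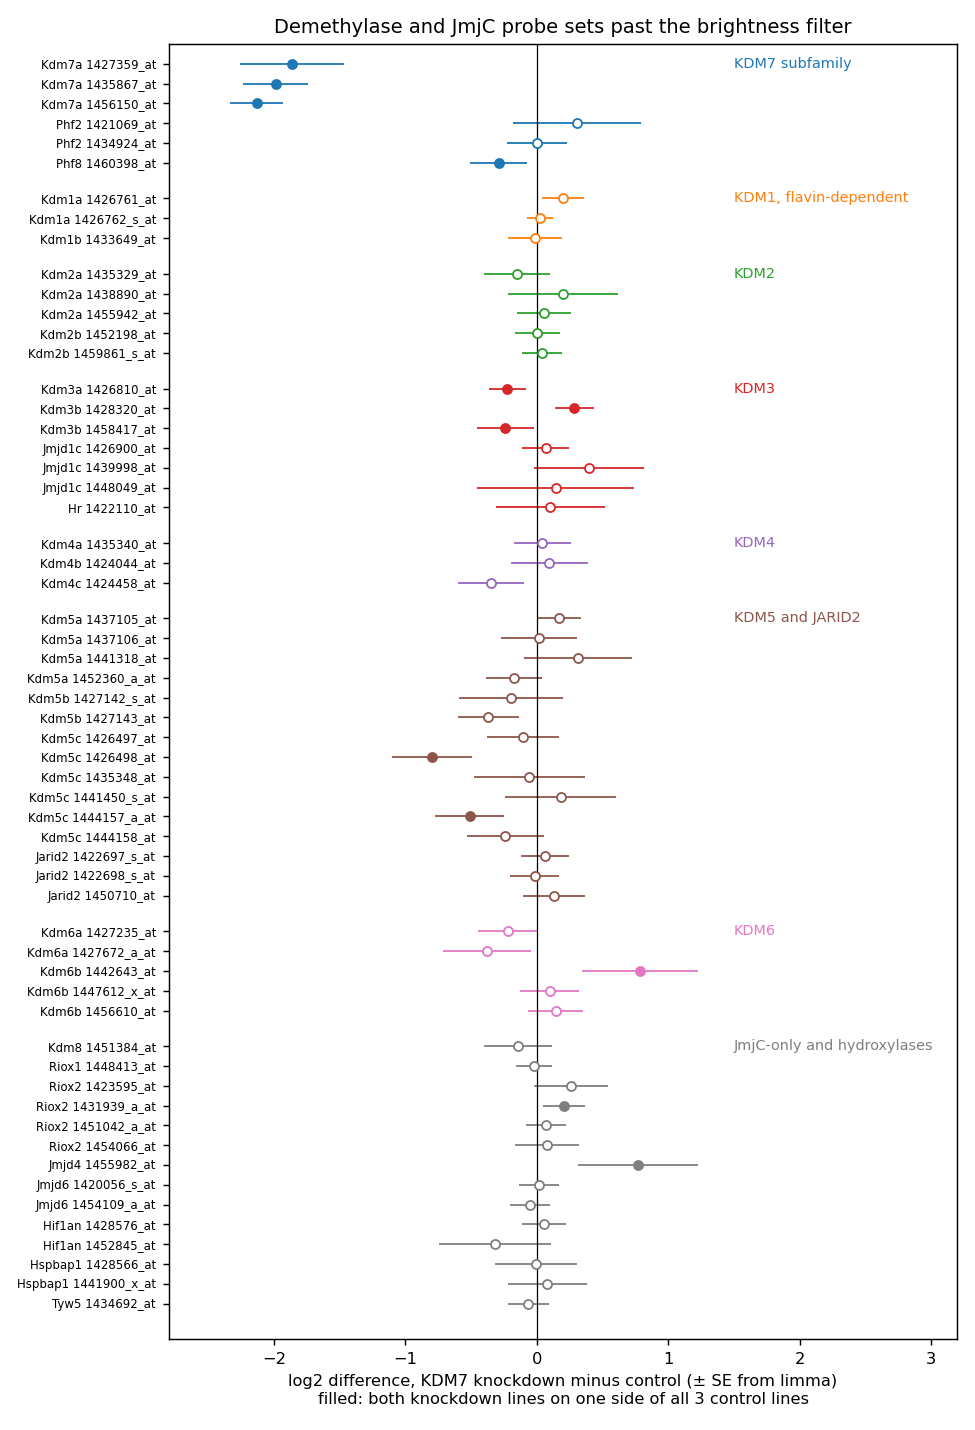
Log2 difference, KDM7 knockdown minus control, with its SE from limma for the 58 member probe sets past the brightness filter, by subfamily, where filled points mark probe sets that do not overlap between the groups. The 3 Kdm7a probe sets stand at -2.13 to -1.86, and the other 55 lie between -0.80 and 0.79.

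Among the flavin-dependent enzymes, Kdm1a encodes LSD1, the H3K4 demethylase of the CoREST complex. Probe set 1426762_s_at had 6960 and 7361 in the knockdown lines, against 6529, 7041 and 7544 in the control lines, a log2 difference of 0.03 (SE 0.10). Kdm1b, whose product acts on H3K4 in growing oocytes, had 381 and 419 in the knockdown lines, against 430, 465 and 329 in the control lines (-0.01, SE 0.21). The groups overlapped for both genes, and all 3 tested probe sets of this kind lay between -0.01 and 0.20.

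The KDM2 proteins bind unmethylated CpG DNA and act on H3K36, and KDM2B also brings a Polycomb complex to such sites. Kdm2a 1435329_at had 434 and 456 in the knockdown lines, against 350, 582 and 592 in the control lines. Kdm2b 1459861_s_at had 1876 and 1852 in the knockdown lines, against 2127, 1660 and 1695 in the control lines. Neither gene separated the groups, with log2 differences of -0.15 (SE 0.25) and 0.04 (SE 0.15). Of the 5 tested KDM2 probe sets 0 did, where the array gave 22.8%. Of the 7 probe sets of Kdm2a 4 were under the filter.

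In the KDM3 group, which acts on H3K9 mono- and dimethylation, 3 of 7 tested probe sets separated the groups, where the array gave 22.8%. Kdm3a, needed for sperm formation in mice and induced by low oxygen, had 1160 and 1129 in the knockdown lines, against 1389, 1249 and 1375 in the control lines. Both knockdown lines were lowest, with a log2 difference of -0.22 (SE 0.14, adjusted p = 0.916 in limma). Kdm3b gave opposite answers by its 2 probe sets. Its brighter 1428320_at had 850 and 893 in the knockdown lines, against 714, 718 and 712 in the control lines (log2 difference 0.29, SE 0.15). Its 1458417_at had 172 and 150 in the knockdown lines, against 201, 191 and 177 in the control lines (-0.24, SE 0.22). Jmjd1c, a large relative, had 2556 and 2767 by 1426900_at in the knockdown lines, against 1987, 2957 and 2785 in the control lines (0.07, SE 0.18). Its dim 1448049_at spread 4.11-fold over the 5 lines, with 42.0 and 69.5 in the knockdown lines, against 25.3, 44.4 and 104 in the control lines. Hr, the hairless corepressor of nuclear receptors, had 75.3 and 44.0 in the knockdown lines, against 66.0, 59.6 and 39.1 in the control lines (0.10, SE 0.42). Jmjd1c and Hr overlapped between the groups at every tested probe set.

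KDM4 enzymes remove trimethylation from H3K9, and those other than KDM4D also from H3K36. Kdm4a 1435340_at had 469 and 417 in the knockdown lines, against 371, 390 and 545 in the control lines (log2 difference 0.04, SE 0.22). Kdm4b had 103 and 93.6 in the knockdown lines, against 91.0, 112 and 76.1 in the control lines (0.10, SE 0.30). Kdm4c had 255 and 310 in the knockdown lines, against 324, 480 and 292 in the control lines (-0.34, SE 0.25). The empty vector line was the high one for Kdm4c, and the groups overlapped for all 3 genes. Kdm4d, under the filter, had 2.96 and 37.2 in the knockdown lines, against 15.0, 21.5 and 3.46 in the control lines.

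The KDM5 enzymes remove methylation from H3K4. Kdm5a 1437105_at had 1034 and 974 in the knockdown lines, against 789, 865 and 1039 in the control lines (log2 difference 0.17, SE 0.17). Kdm5b 1427143_at had 398 and 562 in the knockdown lines, against 565, 520 and 773 in the control lines (-0.37, SE 0.23). Both genes overlapped between the groups, at 4 and 2 tested probe sets. Jarid2, which encodes a partner of Polycomb repressive complex 2, had 3488 and 3671 by 1422698_s_at in the knockdown lines, against 2758, 4072 and 4208 in the control lines (-0.01, SE 0.19). The parental line was lowest at all 3 Jarid2 probe sets, at -0.48 to -0.68 (log2) against the mean of the 4 other lines, and without it their differences were -0.12 to -0.21.

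Kdm5c, an X-linked gene for an H3K4 demethylase, had the most negative difference among the tested probe sets outside Kdm7a. Probe set 1426498_at had 146 and 111 in the knockdown lines, against 317, 193 and 177 in the control lines. The log2 difference was -0.80 (SE 0.30, unadjusted p = 0.0289 and adjusted p = 0.916 in limma), or -0.54 without the parental line. Probe set 1444157_a_at had 425 and 370 in the knockdown lines, against 807, 447 and 501 in the control lines (-0.51, SE 0.26, and -0.25 without the parental line). At the brightest, 1444158_at, with 474 and 555 against 933, 489 and 487, the groups overlapped, and the difference of -0.24 became 0.07 without the parental line. The 3 other tested probe sets lay between -0.10 and 0.18, or between -0.08 and 0.38 without the parental line, so the 6 did not give 1 answer.

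The KDM6 enzymes act on H3K27. Kdm6a, the X-linked UTX gene, had 386 and 398 by 1427235_at in the knockdown lines, against 600, 433 and 366 in the control lines (log2 difference -0.22, SE 0.23, and -0.02 without the parental line). Kdm6b, the inducible JMJD3 gene, had 2049 and 1872 by 1447612_x_at in the knockdown lines, against 1443, 1689 and 2513 in the control lines (0.10, SE 0.22). Both overlapped between the groups at these probe sets. The dim 1442643_at of Kdm6b had 76.3 and 88.2 in the knockdown lines, against 28.1, 58.8 and 64.9 in the control lines. Its knockdown lines were both highest, with a difference of 0.79 (SE 0.44), or 0.41 without the parental line and 0.50 with the offset of 32. The adjusted p was 0.916 in limma. The brighter Kdm6b probe sets did not separate the groups.

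The JmjC proteins with other substrates held 9 genes, of which 8 were tested. Jmjd4, whose human counterpart hydroxylates the translation termination factor eRF1, had 99.8 and 101 by 1455982_at in the knockdown lines, against 31.5, 77.0 and 84.2 in the control lines. Both knockdown lines were highest (log2 difference 0.77, SE 0.46, or 0.32 without the parental line), at an adjusted p of 0.916 in limma. Its second probe set, 1435915_at, under the filter, had 17.2 and 12.1 in the knockdown lines, against 34.2, 19.5 and 26.0 in the control lines, the opposite order. The ribosomal oxygenase gene Riox1 had 1535 and 1746 in the knockdown lines, against 1762, 1586 and 1636 in the control lines. Riox2, its relative, had 1464 and 1545 by 1451042_a_at in the knockdown lines, against 1264, 1458 and 1587 in the control lines. Both overlapped, while Riox2 1431939_a_at had 621 and 679 in the knockdown lines, above 572, 529 and 589 in the control lines (0.21, SE 0.16).

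For the remaining genes the groups overlapped at every tested probe set. Kdm8, also called JMJD5, had 157 and 161 in the knockdown lines, against 229, 147 and 161 in the control lines. Jmjd6, a lysyl hydroxylase of splicing factors, had 2333 and 2241 by 1454109_a_at in the knockdown lines, against 2026, 2722 and 2396 in the control lines. Hif1an, the asparaginyl hydroxylase that restrains hypoxia-inducible factor, had 659 and 653 by 1428576_at in the knockdown lines, against 550, 685 and 668 in the control lines. These 3 genes had log2 differences of -0.14, -0.05 and 0.06, within their SE. Hspbap1, named for binding a small heat shock protein, had 260 and 303 by 1441900_x_at in the knockdown lines, against 175, 349 and 305 in the control lines. Tyw5, a tRNA hydroxylase, had 1141 and 1249 in the knockdown lines, against 1127, 1232 and 1399 in the control lines. Jmjd8, under the filter, had 61.7 and 49.6 in the knockdown lines, against 5.99, 53.8 and 30.9 in the control lines.

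The median size of line 2 minus line 1 was 0.14 (log2) for the member probe sets, against 0.17 over all probe sets tested. Line 2 and line 1 were at least 2-fold apart for 3 of 58 member probe sets, where the array gave 3.08%. These were Hif1an 1452845_at, with 78.2 in line 2 and 33.5 in line 1 (log2 difference 1.22, SE 0.58), Kdm5b 1427142_s_at, with 112 and 53.4 (1.07, SE 0.55), and Kdm6a 1427672_a_at, with 137 and 284 (-1.05, SE 0.43). The other tested probe sets of these 3 genes showed no such gap, for example Kdm5b 1427143_at with 562 in line 2 and 398 in line 1. All 3 gaps had an adjusted p of 1.00 in limma with 3 groups, a fit that takes the spread of a single line from the controls. The fit called 1 probe set of the array, or 0.00444%, and 0 members. At an unadjusted p under 0.05 it had 1 member probe set, where the array gave 1.51%. Of line 1 against the controls it called 0 of the array and of line 2 against the controls 1, or 0.00444%, and in both 0 members. At an unadjusted p under 0.05 these had 3 and 5 member probe sets, where the array gave 1.99% and 2.77%, and 3 of each were those of Kdm7a.

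The members' high and low lines were counted next. The highest and lowest of the 5 lines were at least 2-fold apart for 15 of 58 member probe sets, where the array gave 21.2%, and for 12 of 55 without Kdm7a. The parental line was the lowest of the 5 for 24 of the 58, or 41.4%, where the array gave 31.5%, and the highest for 14, or 24.1%, where the array gave 23.0%. The EGFP knockdown line was highest for 21, or 36.2%, where the array gave 23.3%. By the brightest probe set of each gene, the genes lowest in the parental line included Jarid2, Kdm2a, Jmjd1c, Kdm6b, Jmjd4 and Hspbap1.

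**Figure D3:**
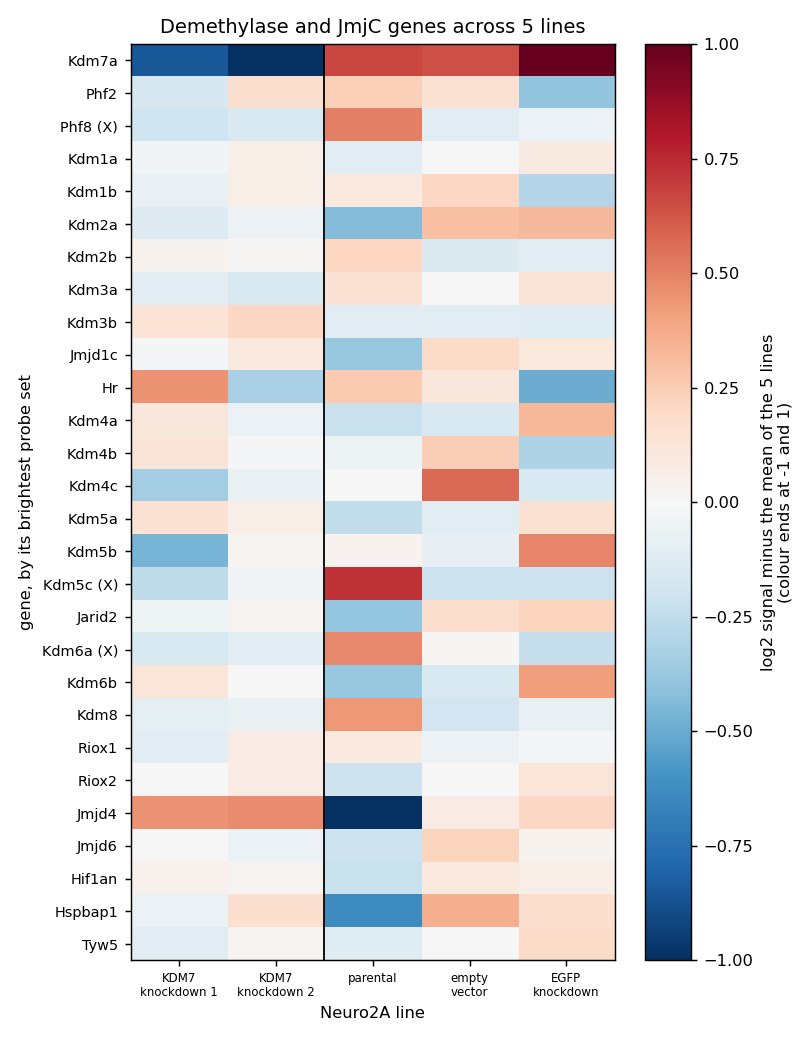
Log2 signal of each of the 28 tested member genes, by its brightest probe set, minus its mean over the 5 lines, with the KDM7 knockdown lines left of the black bar and X-linked genes marked (X). Kdm7a stands out in the knockdown columns, and Phf8, Kdm5c and Kdm6a are highest in the parental column. Of the autosomal genes, Phf2, Kdm2b, Kdm3a, Kdm8 and Riox1 are also highest there.

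The 3 X-linked members, Kdm5c, Kdm6a and Phf8, had high values in the parental line, and X-linked and autosomal members were split after this was seen. The parental line was highest at 7 of their 9 tested probe sets and lowest at 0, against highest at 7 and lowest at 24 of the 49 tested on autosomes. Their median excess over the mean of the 4 other lines was 0.63 (log2), against -0.22 for autosomal members. Other genes of the X chromosome did the same. Over 528 other X-linked probe sets the median was 0.54 and the parental line was highest at 74.8%, against -0.05 and 22.3% over 19314 autosomal ones. The parental line was lowest at 4.36% of the X-linked and 31.3% of the autosomal ones. The medians of the 19 autosomes lay between -0.15 and 0.18, each from the same 5 arrays. Each of these values rests on 1 parental array, and DNA copy number was not measured.

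The promoter windows of Kdm5c and Kdm6a, the X-linked members outside the KDM7 subfamily, are shown in the same form beside that of Phf8 above, to let the 3 be compared.
Kdm5c, chrX:152232977-152233226, plus strand: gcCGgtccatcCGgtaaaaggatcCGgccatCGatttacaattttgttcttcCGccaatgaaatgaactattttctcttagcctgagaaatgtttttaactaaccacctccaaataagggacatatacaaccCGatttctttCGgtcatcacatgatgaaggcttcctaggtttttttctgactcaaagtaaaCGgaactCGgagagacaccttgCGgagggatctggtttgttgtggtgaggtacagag
Kdm6a, chrX:18162325-18162574, plus strand: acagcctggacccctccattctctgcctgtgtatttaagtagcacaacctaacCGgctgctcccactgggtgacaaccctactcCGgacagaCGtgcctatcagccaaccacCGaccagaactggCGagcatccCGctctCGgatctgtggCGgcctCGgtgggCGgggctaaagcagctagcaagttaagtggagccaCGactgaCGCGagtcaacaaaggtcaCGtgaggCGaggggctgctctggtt
Kdm5c held 10 CG dinucleotides, reached by 37.8% of windows, and Kdm6a held 15, reached by 27.3%. The 3 genes thus had fewer than Kdm7a and Phf2, and all 3 had at least the 10 that 27 of the 32 member windows reached.

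This X-wide difference bears on the knockdown comparison, since the parental line is 1 of the 3 controls. Over all 537 X-linked probe sets the median knockdown difference was -0.21, and -0.04 without the parental line. Phf8 1460398_at had -0.29 and -0.09, Kdm6a 1427235_at -0.22 and -0.02, and Kdm5c 1444158_at -0.24 and 0.07, each with and without that line. Larger negative values were left for Kdm5c 1426498_at, with -0.80 and -0.54, Kdm5c 1444157_a_at, with -0.51 and -0.25, and Kdm6a 1427672_a_at, with -0.38 and -0.21. The groups overlapped at this Kdm6a probe set, with 284 in knockdown line 1 and 137 in line 2, against 325, 208 and 249 in the control lines. Positive values were left for Kdm5c 1435348_at, with -0.06 and 0.38, and Kdm5c 1441450_s_at, with 0.18 and 0.27. Kdm5c 1426497_at had -0.10 and -0.08. All 9 tested X-linked member probe sets had a higher difference without the parental line, and 7 of the 9 were nearer 0. The first count only restates that the parental line lay above the mean log2 signal of the other controls at each. It is no separate result. For Kdm7a, on chromosome 6, whose median was 0.01 with and -0.03 without the parental line, 1456150_at had -2.13 and -2.26. Kdm7a was thus as low without the parental line, while the Phf8 value shrank. At Phf8 1460398_at both knockdown lines, with 565 and 584, still lay below the empty vector (603) and EGFP knockdown (624) lines.

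**Figure D4:**
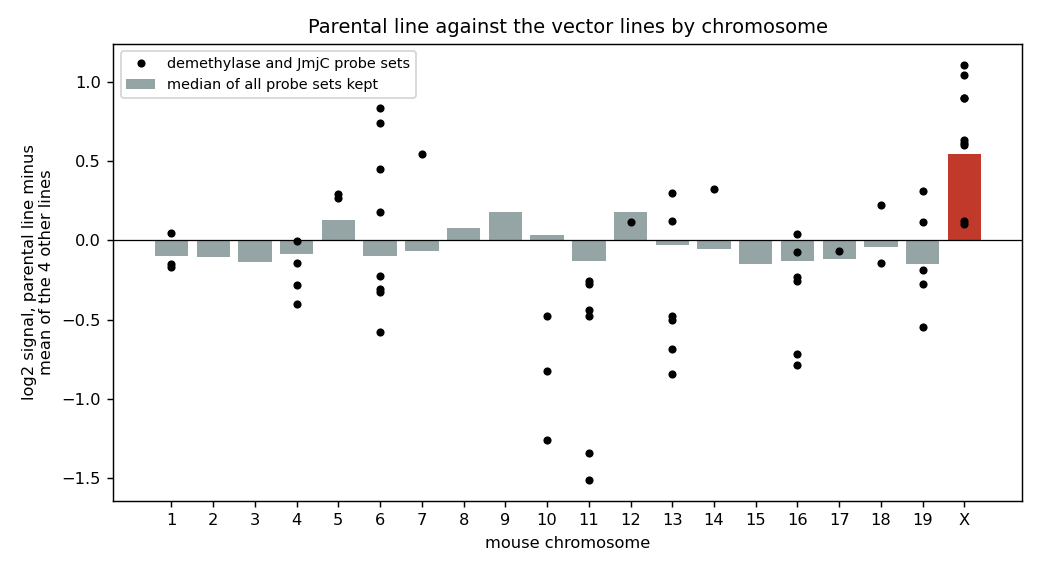
Log2 signal of the parental line minus the mean of the 4 other lines, with bars for the median over all tested probe sets of each mouse chromosome (X in red) and black points for the member probe sets. The X bar stands at 0.54, while autosome bars lie between -0.15 and 0.18.

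Genes that work with or against these enzymes were counted from lists of symbols, and 0 of their members passed in limma in either direction. The share of probe sets on one side of all controls is to be read against 22.8% of the array. Of methyltransferases for H3K9 and H3K27, 14 probe sets of 8 genes were tested, and 1 separated the groups, above (median log2 difference 0.05). Ezh2, the H3K27 methyltransferase, had 5212 and 5061 in the knockdown lines, against 4944, 6098 and 5102 in the control lines (-0.06, SE 0.12). Ehmt2, which makes H3K9 dimethylation, had 1200 and 1343 by 1460692_at in the knockdown lines, against 1341, 1340 and 1501 in the control lines (-0.13, SE 0.14). Both overlapped between the groups. Of those for H3K4 and H3K36, 1 of 23 separated, above (median 0.06), and Kmt2d 1435550_at had 1175 and 1199 in the knockdown lines, against 837, 1062 and 1226 in the control lines. Of those for H4K20, 1 of 8 separated, above (median 0.04).

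Partners of the demethylases and of Jarid2 gave 73 tested probe sets of 29 genes, of which 3 lay above and 18 below all controls, 4.11% above and 24.7% below where the array gave 12.6% and 10.2% (median -0.06). Without the parental line 6 lay above and 25 below, or 8.22% and 34.2%, where the array gave 18.5% and 17.7%. An unadjusted p under 0.05 in limma was reached by 2 of the 73, Arid5b 1420973_at and Ash2l 1420616_at, where the array gave 4.96%. The Ash2l probe set lay above all controls (log2 difference 0.26, SE 0.11), while Ash2l 1420615_at lay below them (-0.41, SE 0.27). Among the 18 below, Arid5b and Rnf2 were picked after their values were seen. Arid5b 1420973_at, the partner gene of Phf2, had 156 and 164 in the knockdown lines, against 206, 215 and 292 in the control lines. Its log2 difference was -0.55 (SE 0.24, adjusted p = 0.916 in limma). Rnf2 1451519_at, a Polycomb ubiquitin ligase gene, had 1731 and 1723 in the knockdown lines, against 2183, 1970 and 2140 in the control lines (-0.28, SE 0.13). Rcor1, the CoREST scaffold, had 1029 and 1101 by 1434336_s_at in the knockdown lines, against 1460, 1073 and 994 in the control lines. Hdac1, a deacetylase of the same complex, had 2909 and 2983 in the knockdown lines, against 2968, 3232 and 3798 in the control lines. Rcor1 and Hdac1 overlapped. Bcor, a corepressor that binds the KDM2B complex, had 514 and 459 by its brightest 1428773_s_at in the knockdown lines, against 655, 481 and 463 in the control lines. At 1429438_at it had 246 and 269, against 434, 268 and 288. The groups overlapped at these 2 probe sets. Its dimmest, 1452910_at, had 131 and 131, below 177, 142 and 178 in the control lines. Of other enzymes that use 2-oxoglutarate, 2 of 16 separated, both below (median -0.03), and Tet1 1455425_at, a DNA demethylase gene, had 33.3 and 36.8 in the knockdown lines, against 83.6, 72.2 and 33.1 in the control lines, overlapping. The Y-linked relatives Kdm5d and Uty had 0 of 7 probe sets past the filter, with summed signals of 78.2 and 41.6 in the knockdown lines, against 45.6, 55.9 and 88.3 in the control lines.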

How the data were processed

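The authors deposited linear signal intensities of 5 arrays, for which the submitters' processing notes name MAS5, with neither a version nor a genome build given in the sources used here. No further normalization was applied, log2 was taken without an offset, and 64 control probe sets of 45101 were left out. Probe sets with a mean log2 signal at or above the median, 22519 of 45037, were tested with limma 3.58.1 in R 4.3.3 (lmFit, eBayes with trend and robust, Benjamini-Hochberg at 0.05 over all of them), 2 knockdown against 3 control lines, which leaves 3 residual degrees of freedom. A fit with 3 groups gave each knockdown line. The test was tried on simulated data, where unchanged probe sets made up more than a share of 0.05 of its calls. The number of arrays limits the precision.

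Symbols came from the platform annotation, in which 34945 probe sets had 1 symbol, 932 several and 9160 none. One further probe set, listed for Kdm6b and a second gene, is not used here. All 86 member gene numbers were found in a gene table of GRCm38.p6, which also gave chromosomes. Promoter sequences are RefSeq's. Some genes of the related and marker lists are not reported here.

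The members and lists were chosen with earlier results of these data known. Values by line are given for every probe set of Kdm7a, Phf2 and Phf8, the brightest of each other member, and tested ones that separated the groups by 0.5 or more (log2) or spread 4-fold over the lines. Further probe sets of Kdm3b, Kdm5b, Kdm5c, Kdm6a, Riox2, Hif1an and Jmjd4 were named after their values were seen. From the related lists Ezh2, Ehmt2, Rcor1, Hdac1, Bcor, Kmt2d, Tet1, Uty and Kdm5d are named, and Arid5b, Ash2l and Rnf2 after their values were seen. Alternatives were plain eBayes (without trend and robust), an offset of 32 before log2, a brightness filter at the 70th percentile or none, 3 normalizations (cyclic loess, median centring, quantile) and leaving out each array.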

Additional observations from a re-analysis of the deposited data

How the results depend on the processing

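The count of 2 probe sets past the threshold in limma for knockdown against control became 1 after median centring, 0 after cyclic loess, 0 with an offset of 32 and 0 without trend and robust, and 0 to 4 when 1 array was left out. For knockdown line 2 against control the count of 1 became 2 under the stricter filter (70th percentile) and 0 without trend and robust. For line 2 against line 1 the count of 1 became 0 without a filter and 0 without trend and robust. For line 1 it stayed at 0 in all of these. With a knockdown line left out, the spread of the remaining one was taken from the controls.

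The 12 member probe sets that did not overlap between the groups became 7 of 36 with the filter at the 70th percentile, where the array gave 22.6%, and ranged from 15 to 25 of 58 when 1 array was left out. The 25, or 43.1%, came without the parental line, where the array gave 36.3%, and the 15, or 25.9%, without the empty vector line, where it gave 39.3%. In these settings 0 or 1 member probe set passed in limma. Kdm7a 1456150_at kept its direction throughout, with log2 differences from -2.26 to -1.90. Median centring moved the median of all tested probe sets by -0.11 and turned the sign of 17 of 58 member differences, each at most 0.10 in size, and leaving out the parental line turned 19, of which 1, Kdm5c 1444158_at, was at least 0.2 in size.

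No paired analysis was possible because the labels number the knockdown lines only, and the control lines share no number with them.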

Other observations

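Chromosomes other than X also differed between the arrays. On chromosome 5, with 1280 tested probe sets, the empty vector line had a median of -0.26 (log2) against the mean of the 4 other lines. Kdm2b lies there, and the empty vector line was its lowest at both probe sets, 1660 by 1459861_s_at and 843 by 1452198_at. On chromosome 18, with 546 tested probe sets, the EGFP knockdown line had -0.26, and the median knockdown difference was 0.14 with and without the parental line. Kdm3b lies there, with knockdown differences of 0.29 by 1428320_at and -0.24 by 1458417_at. At 1428320_at the EGFP knockdown line, with 712, was near the parental (714) and empty vector (718) lines. At 1458417_at it had 177, against 201 and 191. On chromosome 3, with 995 probe sets and 0 member probe sets tested, the EGFP knockdown line had -0.21. On chromosome 13, where Phf2, Kdm1b and Jarid2 lie, knockdown line 1 had 0.14 and knockdown line 2 -0.06. By brightest probe set these members had the opposite order, with line 2 minus line 1 at 0.33 (log2) for Phf2, 0.14 for Kdm1b and 0.07 for Jarid2. Their other tested probe sets had -0.25 for Phf2 and -0.03 and -0.01 for Jarid2. The chromosome medians were noted after the data were seen, rest on 1 array per line, and were not tested.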
